A study of Mus musculus with 11 samples.

Results

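Immature olfactory sensory neurons (OSNs) were followed in RNA-seq of the whole main olfactory epithelium (MOE) through 8 genes, Gap43, Gng8, Dcx, Stmn2, Tubb3, Ncam1, Crmp1 and Dpysl3. They were chosen by symbol as markers of OSNs that have left the cell cycle and are growing an axon. All 8 were among the 24421 entries of the raw count table and all 8 passed the filter on low counts, as did 16574 genes in all. The study deleted the cluster of olfactory Taar genes (trace amine-associated receptors, Taar2 to Taar9), a receptor family expressed by a small group of OSNs. Libraries were made from the MOE of wild type (WT, n = 3), heterozygous (n = 4) and homozygous (n = 4) cluster knockout mice. According to the labels all were C57BL/6 animals of postnatal day 1 to 2, with no treatment and no other allele named. For the same knockout line the methods instead describe older animals on a background mixed with 129, and this difference could not be settled here. Both sexes were used per the methods, and the labels give neither sex nor litter. Nothing states whether each library came from 1 animal or a pool, so p-values measure only the spread between these libraries. The deletion is carried by every cell of the animal and is not driven by a Cre.

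OSNs are made throughout life. Basal progenitors divide, leave the cycle and become immature OSNs, which express Gap43 and extend an axon through the lamina propria towards the olfactory bulb. They then switch on Omp (olfactory marker protein) and the cyclic AMP signalling genes of the mature OSN. The first days after birth are a time of high production, and Gap43 and Omp are the usual pair by which the younger and the older population are told apart in sections. The 8 genes are not exclusive to OSNs, since other growing neurons use the same cytoskeleton. How much of their RNA came from mature OSNs was not measured either, so a ratio to Omp need not be a ratio of immature to mature cells. In a bulk sample, fewer cells of a type and less RNA per cell cannot be told apart.

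The depth was 9239866 to 14632525 counts per library, and the counts of the 8 genes ranged from 356 (Gng8) to 8306 (Dpysl3) in 1 library. Summed over the 14 olfactory Taar genes, WT libraries held 87 to 119 counts, heterozygous libraries 31 to 96 and homozygous libraries 1 to 3, as the labels would have it. The libraries fell into 2 sets by the sign of the first principal component over all tested genes, which held 41.6% of the variance. In set 1 were 2 libraries of each genotype, WT replicates 1 and 2, replicates 3 and 4 of the heterozygous mice and replicates 1 and 2 of the homozygous mice. Set 2 held the remaining 5 libraries, among them a single WT library, replicate 3. The labels name nothing that separates the sets, and they are referred to below because some of the 8 genes separate by set. In homozygous replicate 2 the ribosomal RNA entry Rn45s took 25.8% of the counts, against at most 0.786% elsewhere. Skeletal muscle RNA was found in 4 libraries (replicates 2 and 4 of the heterozygous mice, replicates 2 and 3 of the homozygous mice), with 478 to 1827 CPM (counts after scaling every library to one shared total) summed over 13 muscle genes, against 26.8 to 152 CPM in the other 7.

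Promoter sequence was at hand in the RefSeq promoter table (build GRCm38.p6) for 4 of the 8 genes. The bases upstream of the start are shown for Gng8 and Dcx, the 2 genes that departed most from the other 6 in the results below, cut off where the annotated gene begins. Each is written 5′ to 3′ on the strand of the gene, and capitals mark the GC box (GGGCGG, searched on both strands).
Gng8 upstream, chr7:16891536-16891785, plus strand: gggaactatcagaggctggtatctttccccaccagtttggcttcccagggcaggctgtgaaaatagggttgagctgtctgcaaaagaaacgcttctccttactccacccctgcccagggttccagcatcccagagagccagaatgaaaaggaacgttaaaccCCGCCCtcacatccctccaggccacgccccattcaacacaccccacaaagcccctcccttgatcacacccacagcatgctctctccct
Dcx upstream, chrX:143933312-143933469, minus strand: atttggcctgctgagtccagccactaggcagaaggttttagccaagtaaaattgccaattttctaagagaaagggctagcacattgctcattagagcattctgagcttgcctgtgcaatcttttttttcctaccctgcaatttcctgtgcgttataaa
The 250 bases of Gng8 hold 1 GC box, as 32.7% of all promoter windows of that length hold at least 1, and 56.0% of its bases are G or C against a median of 52.4% over all windows. The 158 bases of Dcx hold 0 GC boxes, against 17.8% of windows of that length with at least 1, and 42.4% of its bases are G or C against a median of 51.3%. Both stretches hold 0 copies of the E-box (CANNTG, a palindrome) and 0 of the homeodomain core TAATTA. At these lengths 66.2% and 51.1% of windows hold an E-box, and 4.84% and 3.42% hold TAATTA. A match or its absence describes these letters only.

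The 8 genes lie on 8 chromosomes of the mm10 assembly. Gap43 is annotated at chr16:42248442-42340651 on the minus strand, Ncam1 at chr9:49502136-49798925 (minus), Stmn2 at chr3:8509360-8561606 (plus) and Tubb3 at chr8:123411424-123422015 (plus). Dcx lies at chrX:143855842-143933311 (minus), Crmp1 at chr5:37241940-37292133 (plus) and Gng8 at chr7:16891786-16895436 (plus). Dpysl3 lies on chromosome 18. Their annotated exons, merged over all transcripts, span from 1522 bp (Gng8) to 12647 bp (Dcx).

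Per length of exon, the levels of the 8 genes differed by more than 10 times from the highest to the lowest. The values in this paragraph are levels in CPM per kilobase of merged exon (mean ± SD over the 11 libraries). Tubb3, the beta-tubulin of neurons, was highest at 194 ± 32.0, followed by Gap43, a phosphoprotein of the growth cone membrane, at 134 ± 15.5. Dpysl3 (CRMP4), a collapsin response mediator protein, stood at 81.0 ± 17.8 and Stmn2 (SCG10), which destabilises microtubules in growing axons, at 70.1 ± 6.24. Gng8, the gamma subunit of a G protein found in immature OSNs, stood at 38.6 ± 10.3. Ncam1, a homophilic adhesion molecule of axons, followed at 26.2 ± 3.54, Crmp1, a second collapsin response mediator protein, at 16.8 ± 2.55, and Dcx, a microtubule-binding protein of migrating and immature neurons, at 15.3 ± 4.30. Omp, for comparison, stood at 233 ± 52.5. The ranges over libraries overlapped for 6 of the 7 neighbouring pairs in this order, the exception being Ncam1 above Crmp1. Within a library the order was firmer. Tubb3 lay above Gap43, Gap43 above Dpysl3, Stmn2 above Gng8 and Ncam1 above Crmp1 in 11 of 11 libraries, Dpysl3 above Stmn2 in 10 and Gng8 above Ncam1 in 9. Crmp1 lay above Dcx in 7 of 11, so these genes are not separated. The merged exon length counts every annotated exon, whether or not it is used here.

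The comparison of genotypes asks whether loss of the Taar cluster went with a different amount of RNA of these 8 genes. None of the 8 genes passed the test in any comparison. In edgeR's quasi-likelihood test, with Benjamini-Hochberg adjustment over all 16574 genes, 0 of the 8 passed an adjusted p of 0.05 in homozygous against WT, in heterozygous against WT or in homozygous against heterozygous. Over all genes the background was 0% in each of these comparisons, so the adjusted count alone says little. At an unadjusted p under 0.05 again 0 of 8 passed in each, where 3.02% of all genes did in homozygous against WT, 2.24% in heterozygous against WT and 0.561% in homozygous against heterozygous. DESeq2 called 0 of 8 as well at either threshold. Of the 21582 genes it tested, 8, 3 and 2 passed the adjusted threshold in the same order of comparisons. At an unadjusted p under 0.05 in DESeq2, 368, 384 and 60 genes were higher and 265, 107 and 60 lower. The CPM values of the genotypes overlapped for all 8 genes in all 3 comparisons, whereas over all genes 4.99%, 2.51% and 0.597% did not overlap, in the same order of comparisons.

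**Figure D1:**
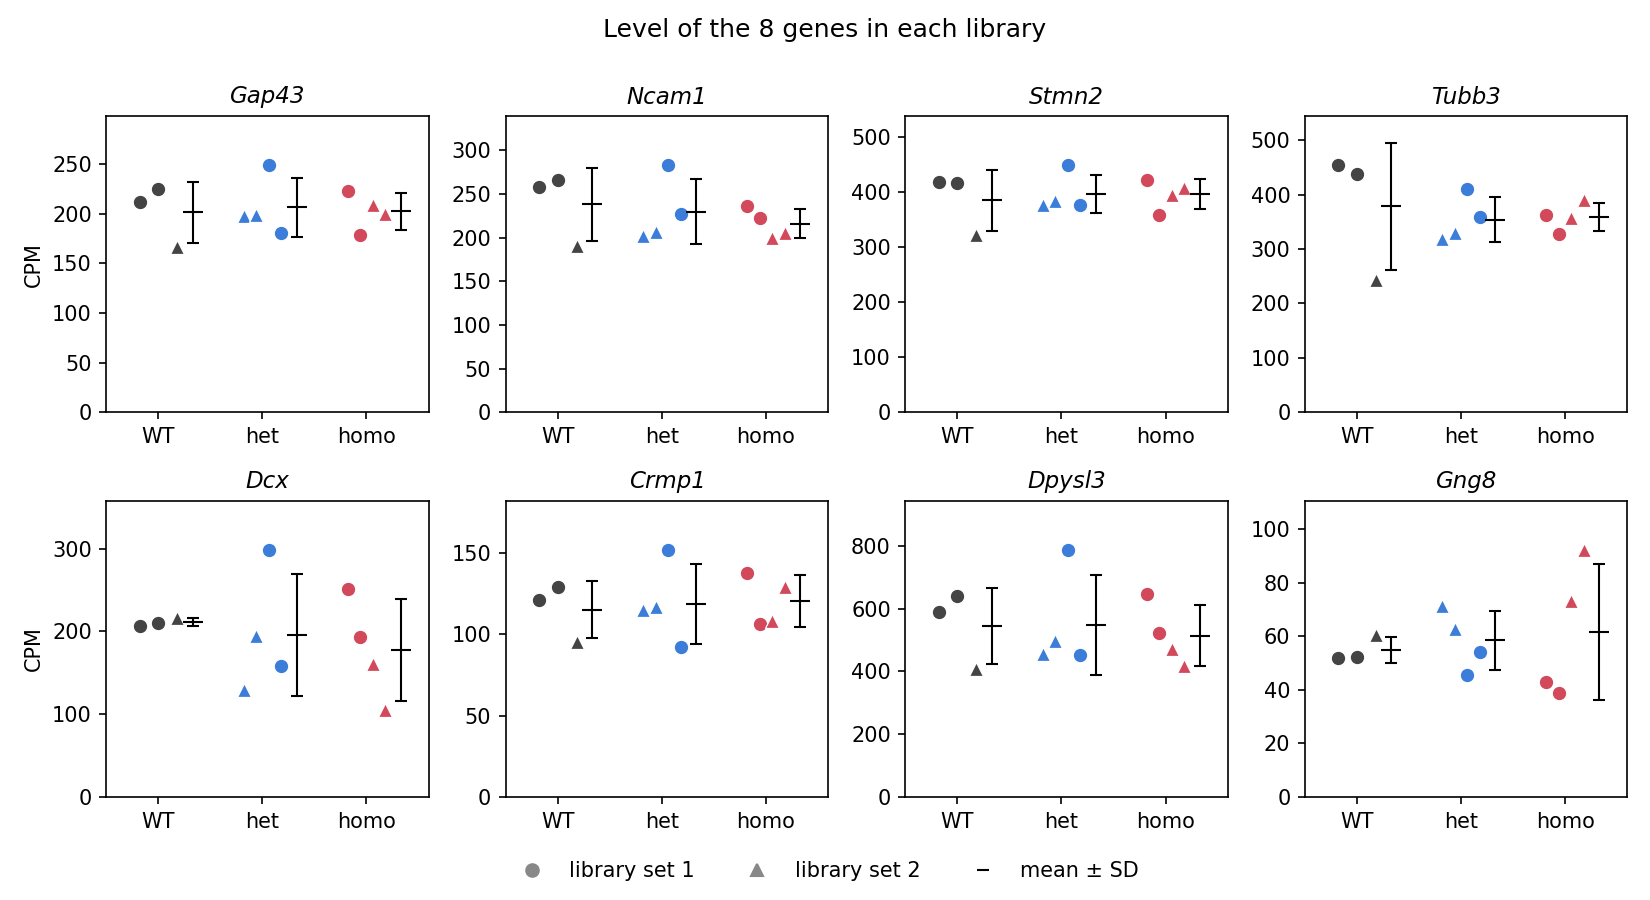
Level of each of the 8 genes in CPM (y axis, from 0) in each of the 11 libraries by genotype (x axis), with circles for library set 1, triangles for set 2 and bars for the mean ± SD. The genotypes overlap in every panel, the WT library of set 2 is the lowest library for 5 of the genes, and Gng8 is the only gene whose triangles all lie above its circles.

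The membrane and adhesion proteins of the growing axon come first. Gap43 stood at 212, 226 and 167 CPM in WT, at 197, 199, 249 and 181 CPM in heterozygous and at 223, 178, 209 and 200 CPM in homozygous libraries, in the order of the replicates. All homozygous values lay inside the WT range, and the group means were 202 ± 30.6 (SD, n = 3), 206 ± 29.5 (n = 4) and 203 ± 18.7 CPM (n = 4). The homozygous to WT fold was 1.01, with a 95% confidence interval of 0.796 to 1.27, and the heterozygous to WT fold was 1.02 (0.811 to 1.29). For this gene a change of 1.5 times in either direction lay outside both intervals. Ncam1 stood at 258, 266 and 190 CPM in WT, at 201, 206, 283 and 227 CPM in heterozygous and at 236, 222, 199 and 206 CPM in homozygous libraries. The lowest library was WT replicate 3 and the highest heterozygous replicate 3, with all homozygous values between the WT extremes. Its homozygous to WT fold of 0.906 (0.708 to 1.16) had the lowest unadjusted p of the 8 genes in that comparison, 0.404 in edgeR (adjusted p = 0.996).

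Next are the genes of the axonal microtubules. Stmn2 stood at 418, 416 and 321 CPM in WT, at 377, 384, 448 and 377 CPM in heterozygous and at 422, 358, 394 and 408 CPM in homozygous libraries. It varied least of the 8, by 1.40 times from the lowest to the highest library, and heterozygous replicate 3 stood apart at the top of its group. The fold was 1.03 both for homozygous against WT (0.826 to 1.28) and for heterozygous against WT (0.829 to 1.28). Tubb3 stood at 454, 438 and 243 CPM in WT, at 318, 329, 410 and 358 CPM in heterozygous and at 362, 328, 357 and 391 CPM in homozygous libraries. Here the WT libraries disagreed among themselves more than the mutants did, with an SD of 117 CPM in WT against 41.4 and 25.7 CPM, and WT replicate 3 was the lowest of all 11 libraries. The homozygous to WT fold was 0.950 (0.699 to 1.29). Without WT replicate 3 the heterozygous against WT log2 fold change went from -0.097 to -0.33 at an unadjusted p of 0.0452 in edgeR (adjusted p = 0.872), and no other member passed an unadjusted p of 0.05 when 1 library was left out.

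Dcx was the most variable gene. It stood at 207, 211 and 217 CPM in WT, at 129, 195, 298 and 159 CPM in heterozygous and at 251, 193, 161 and 105 CPM in homozygous libraries. The WT libraries agreed within an SD of 4.97 CPM, while the heterozygous and homozygous libraries scattered on both sides of them, with SDs of 73.8 and 61.3 CPM. Its homozygous to WT fold of 0.840 was the lowest of the 8 genes, but the interval of 0.534 to 1.32 was also the widest on the log2 scale. A fall of 1.5 times lay inside the interval and a rise of 1.5 times outside it.

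The collapsin response mediator proteins relay repulsive semaphorin signals to the cytoskeleton of the growth cone. Crmp1 stood at 121, 129 and 95.3 CPM in WT, at 115, 117, 152 and 92.1 CPM in heterozygous and at 138, 106, 108 and 129 CPM in homozygous libraries. The groups overlapped throughout, and the homozygous to WT fold was 1.05 (0.795 to 1.37). Dpysl3 stood at 589, 639 and 408 CPM in WT, at 455, 497, 786 and 454 CPM in heterozygous and at 646, 524, 472 and 417 CPM in homozygous libraries. Heterozygous replicate 3 was the highest library for both genes. The homozygous to WT fold of Dpysl3 was 0.943 (0.655 to 1.36) and the heterozygous to WT fold was 1.005 (0.697 to 1.45).

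Gng8 behaved differently. It stood at 51.8, 52.1 and 60.6 CPM in WT, at 71.5, 62.6, 45.5 and 54.3 CPM in heterozygous and at 43.0, 38.8, 73.1 and 92.3 CPM in homozygous libraries. The homozygous group held both the lowest and the highest library, with an SD of 25.4 CPM around 61.8 CPM against 4.96 around 54.9 CPM in WT. Its homozygous to WT fold of 1.13 was the highest of the 8 and its interval ran from 0.743 to 1.71. With the library set as a covariate the log2 fold change went from 0.17 to -0.00090.

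Read together, 4 of the 8 genes had a higher and 4 a lower fitted level in homozygous than in WT libraries, with a median log2 fold change of -0.033 beside 0.015 over all genes. In heterozygous against WT 5 were higher and 3 lower (median 0.021, all genes 0.0018), and in homozygous against heterozygous 3 were higher and 5 lower (median -0.015, all genes 0.0062). Dcx was the lowest and Gng8 the highest of the 8 in each comparison of this fit, an order that rested on single libraries. In homozygous against WT, the log2 fold change of Dcx ran from -0.47 to -0.066 on leaving out 1 library, the latter without homozygous replicate 4, where Ncam1 (-0.12) was the lowest and Crmp1 (0.028) the highest. With same-numbered libraries as a block the same 2 genes were at the ends (-0.13 and 0.10), with Dcx at -0.13 and Gng8 at 0.025. Omp had fitted log2 fold changes of -0.31 (SE 0.24), -0.16 (SE 0.24) and -0.15 (SE 0.22) in the same comparisons, with unadjusted p-values of 0.220, 0.509 and 0.524 in edgeR. Its values against WT rested on 2 WT libraries. Without WT replicate 1 they went to -0.063 (homozygous) and 0.083 (heterozygous), and without WT replicate 3 to -0.56 and -0.41, the former at an unadjusted p of 0.0159 in edgeR (adjusted p = 0.783). Without the 4 libraries with muscle RNA, again 0 of 8 genes passed an unadjusted p of 0.05 in any comparison. Of all 16551 genes in that fit, 146, 190 and 24 were higher and 88, 136 and 15 lower at that threshold, in the same order of comparisons. The homozygous against WT log2 fold changes of the 8 ran from -0.25 (Dcx) to 0.29 (Gng8). With the library set as a covariate they ran from -0.23 (Dcx) to 0.095 (Crmp1), also with 0 of 8 past that threshold. Of all 16574 genes, 602 were higher and 530 lower at that threshold in the fit with this covariate.

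**Figure D2:**
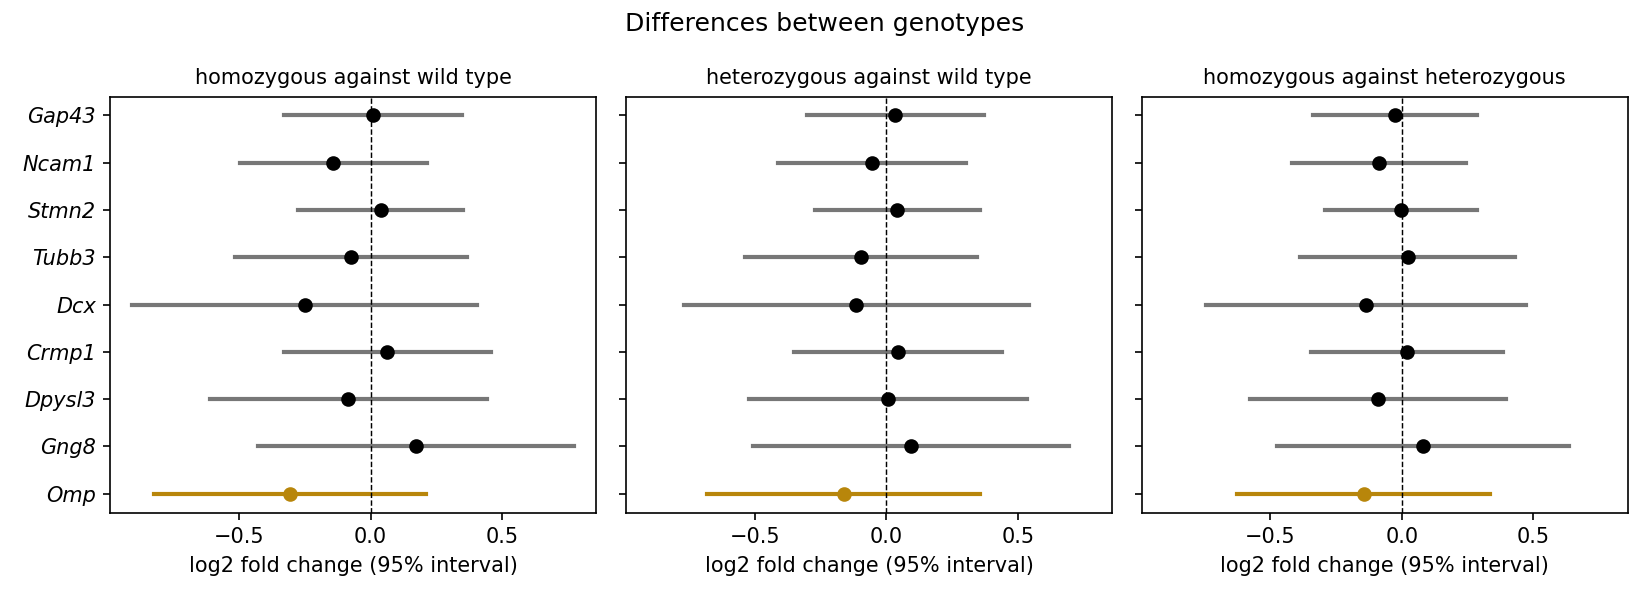
Log2 fold change of the 8 genes and Omp (rows, Omp in gold) from the edgeR fit in the 3 comparisons of genotypes (panels), as points with 95% confidence intervals (bars) and a dashed line at 0. Every interval spans 0, the widest belong to Dcx and Gng8, and the point for Omp lies left of 0 in each panel.

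Between the library sets the 8 genes spread further apart from one another. Since the sets were drawn from all tested genes, these included, the values are a description with no test. By mean log2 CPM 7 of the 8 genes were lower in set 2 and Gng8 alone was higher. Gng8 stood at 38.8 to 54.3 CPM in the 6 libraries of set 1 and at 60.6 to 92.3 CPM in the 5 of set 2, so the sets did not overlap, and set 2 was 1.51 times set 1. Ncam1 ran the opposite way without overlap, from 222 to 283 CPM in set 1 and from 190 to 206 CPM in set 2, or 0.809 times. Over all genes 26.9% did not overlap between the sets, so 2 of 8 is close to the background. For the others the sets overlapped. Dcx in set 2 was 0.724 times set 1, Dpysl3 0.751 times and Tubb3 0.832 times, whereas Gap43 (0.923 times), Crmp1 (0.924 times) and Stmn2 (0.926 times) stood closer to 1. Omp stood at 0.951 times.

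**Figure D3:**
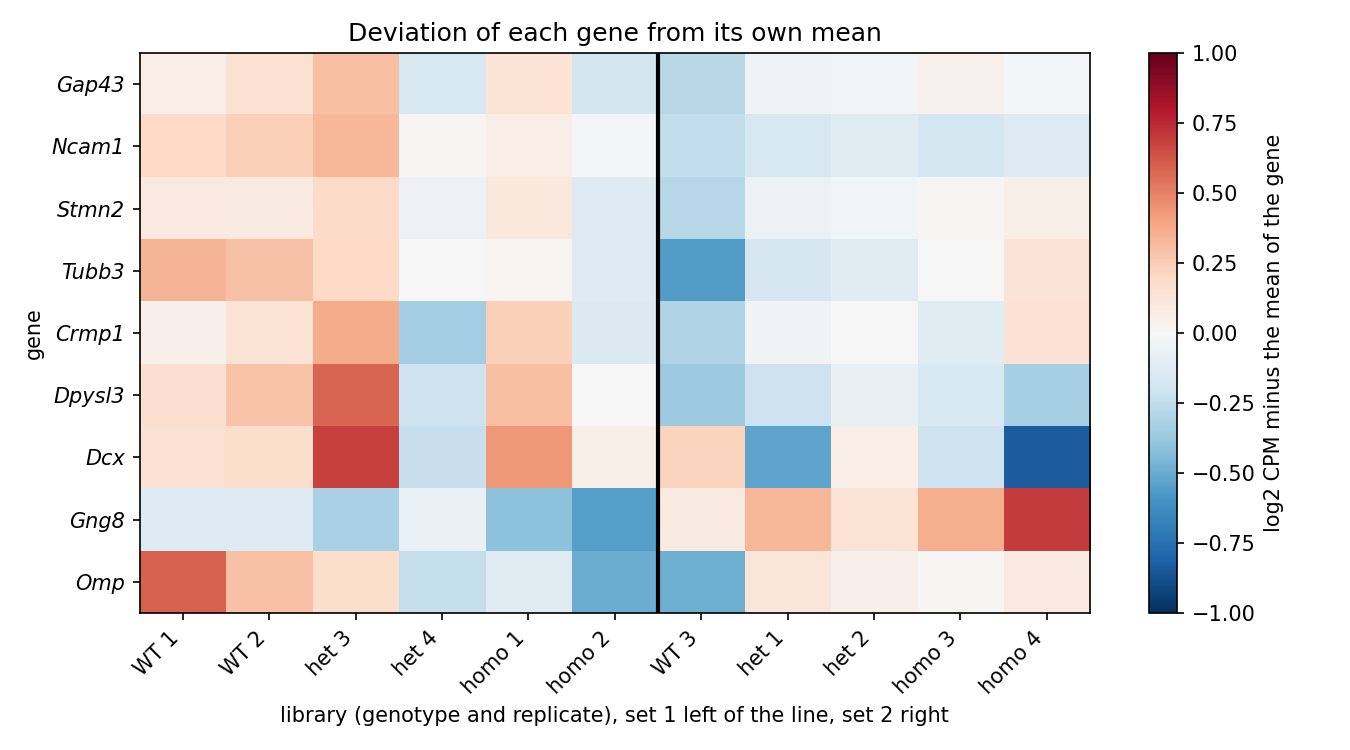
Log2 CPM of each of the 8 genes and Omp (rows) in each library (columns, set 1 left and set 2 right of the line) minus the mean of that gene over the 11 libraries, from blue (below) to red (above). Gng8 is blue in all 6 libraries of set 1 and red in all 5 of set 2, Dcx and Gng8 are furthest apart in homozygous replicate 4, and the row of Omp follows that of Tubb3 more than that of Dcx.

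Within the sets, the 8 genes did not rise and fall as 1 block. After log2 CPM was centred within each set, Pearson's r over the 11 libraries was positive for 24 of the 28 pairs, with a median of 0.66 and a range from -0.70 to 0.93. The points share the libraries, their scaling and their composition, and the r values are given without a p. The closest pair was Gap43 and Stmn2 (r = 0.93), and Gap43 also ran with Crmp1 (0.89), Dpysl3 (0.88) and Ncam1 (0.85). Dcx and Gng8 were the furthest apart (r = -0.70). Gng8 ran closest to Tubb3 (0.73) and Dcx closest to Dpysl3 (0.63), while Dcx against Tubb3 gave -0.34 and Dcx against Stmn2 gave -0.027. Against Omp, Tubb3 gave the highest r (0.87), followed by Ncam1 (0.79) and Stmn2 (0.77), and Dcx the lowest (-0.096). The opposite run of Dcx and Gng8 was clearest in homozygous replicate 4, which held the lowest Dcx and the highest Gng8 of all libraries. In WT replicate 3, Dcx was above the geometric mean of its set (217 against 156 CPM) and Gng8 below it (60.6 against 71.2 CPM). Heterozygous replicate 3 held the highest Dcx of all libraries, but its Gng8 of 45.5 CPM was close to the geometric mean of its set (47.3 CPM).

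Outside the 8, the genes whose centred log2 CPM ran most like the mean of the 8 were Tmem130 (r = 0.98), Rtn1 (0.97), Rnf182 (0.95), Gnb1 (0.95), Lhfpl4 (0.95), Wbscr17 (0.94), Prnp (0.94), Zfp41 (0.94), Cpe (0.94) and Sppl3 (0.93). They are the 10 highest of 11733 genes with a mean of at least 10 CPM, over 11 libraries. Rtn1, a reticulon of neuronal endoplasmic reticulum, Gnb1, a G protein beta subunit and Cpe, a peptide-processing enzyme, are among them. Omp reached an r of 0.73 with the same mean.

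Omp is expressed by mature OSNs, and each of the 8 genes was also set against Omp in the same library. Omp itself stood at 736, 599 and 348 CPM in WT, at 533, 507, 552 and 414 CPM in heterozygous and at 450, 346, 494 and 523 CPM in homozygous libraries. Its range within WT, from the highest of all libraries to nearly the lowest, entered every ratio. Dividing by Omp widened the spread over the 11 libraries for 7 of the 8 genes. For Stmn2 the SD rose from 0.13 (log2 CPM) to 0.24 (log2 ratio) and for Gap43 from 0.17 to 0.24. Tubb3 was the exception, where it went from 0.25 to 0.20.

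The mean ratio to Omp was higher in homozygous than in WT libraries for 7 of the 8 genes, and none of the differences passed the test, which 4 against 3 libraries cannot pass at 0.05. The ratio to Omp was higher in homozygous libraries for 84.2% of all 16423 genes with a count in every library, so 7 of 8 is close to the background. Gap43 to Omp was 0.288, 0.377 and 0.480 in WT, 0.371, 0.391, 0.451 and 0.437 in heterozygous and 0.496, 0.516, 0.422 and 0.383 in homozygous libraries. Homozygous replicates 1 and 2 exceeded the WT range and the other 2 did not. Homozygous replicate 2 had the highest ratio of all libraries for 6 of the 8 genes. It is also the library with the lowest Omp (346 CPM), the Rn45s share of 25.8%, muscle RNA (478 CPM) and a TMM factor of 0.756. Without it the homozygous against WT log2 differences of the ratio ran from -0.25 (Dcx) to 0.41 (Gng8), with a median of 0.18 in place of 0.25, and that of Ncam1 turned to -0.011. The median went lower still, to 0.078, without WT replicate 1. What part the composition of homozygous replicate 2 had in the ratios was not tested. Stmn2 to Omp was 0.568, 0.694 and 0.922 in WT, 0.708, 0.757, 0.812 and 0.911 in heterozygous and 0.937, 1.04, 0.798 and 0.779 in homozygous libraries, with the same 2 libraries on top. Tubb3 to Omp was 0.616, 0.732 and 0.698 in WT, 0.597, 0.648, 0.744 and 0.867 in heterozygous and 0.804, 0.947, 0.723 and 0.746 in homozygous libraries, and here 3 of 4 homozygous libraries lay above all of WT. Its homozygous to WT ratio was 1.18, with the lowest p of all 24 tests, 0.114 (two-sided exact permutation test, 4 against 3 libraries). With the mean log2 CPM of the mature OSN list as denominator in place of Omp, Stmn2 gave the lowest p, 0.0571 (exact permutation test, homozygous against WT, log2 difference 0.28), which is the smallest that 4 against 3 libraries allow. Its ratio ran from 2.04 to 2.68 in WT, 2.51 to 2.90 in heterozygous and 2.72 to 3.06 in homozygous libraries, so all 4 homozygous libraries lay above all 3 WT libraries. It was 1 of 8 genes without overlap in that comparison, where 4.97% of all genes did not overlap, and in heterozygous against WT and homozygous against heterozygous it was 0 of 8, beside 2.24% and 0.592%. Within the 3 same-numbered homozygous and WT pairs, the ratio to Omp was higher in the homozygous library in 3 of 3 for Tubb3 and in 2 of 3 for each of the other 7 genes. Homozygous replicate 4, with the lowest Dcx, has no WT partner and is left out of the pairs. The mean paired log2 difference of Tubb3 was 0.27 (p = 0.250 in an exact sign-flip test, the smallest that 3 pairs can give). In the tests of 4 against 4 libraries, where the smallest p is 0.0286, 0 of 8 were under 0.05 with either denominator.

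The ratios of the adhesion and guidance genes spread in the same way. Ncam1 to Omp was 0.447 ± 0.0970 in WT (n = 3), 0.462 ± 0.0823 in heterozygous (n = 4) and 0.491 ± 0.117 in homozygous libraries (n = 4). Crmp1 to Omp was 0.218 ± 0.0545 in WT, 0.236 ± 0.0268 in heterozygous and 0.270 ± 0.0441 in homozygous libraries, and the homozygous to WT ratio of 1.25 had p = 0.229 by the exact permutation test. Dpysl3 to Omp was 1.01 ± 0.192, 1.09 ± 0.245 and 1.17 ± 0.353. For these genes the difference between groups was within their spread.

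Dcx and Gng8 again took the extremes. Dcx to Omp was 0.281, 0.352 and 0.622 in WT, 0.243, 0.384, 0.541 and 0.383 in heterozygous and 0.558, 0.558, 0.326 and 0.200 in homozygous libraries. The WT and homozygous groups each covered most of the range, and Dcx was the only gene with a lower mean log2 ratio in homozygous than in WT libraries (0.957 times, exact permutation p = 0.971). Gng8 to Omp was 0.0704, 0.0871 and 0.174 in WT, 0.134, 0.123, 0.0825 and 0.131 in heterozygous and 0.0954, 0.112, 0.148 and 0.176 in homozygous libraries. Its homozygous to WT ratio of 1.26 was the highest of the 8, with an exact permutation p of 0.400.

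**Figure D4:**
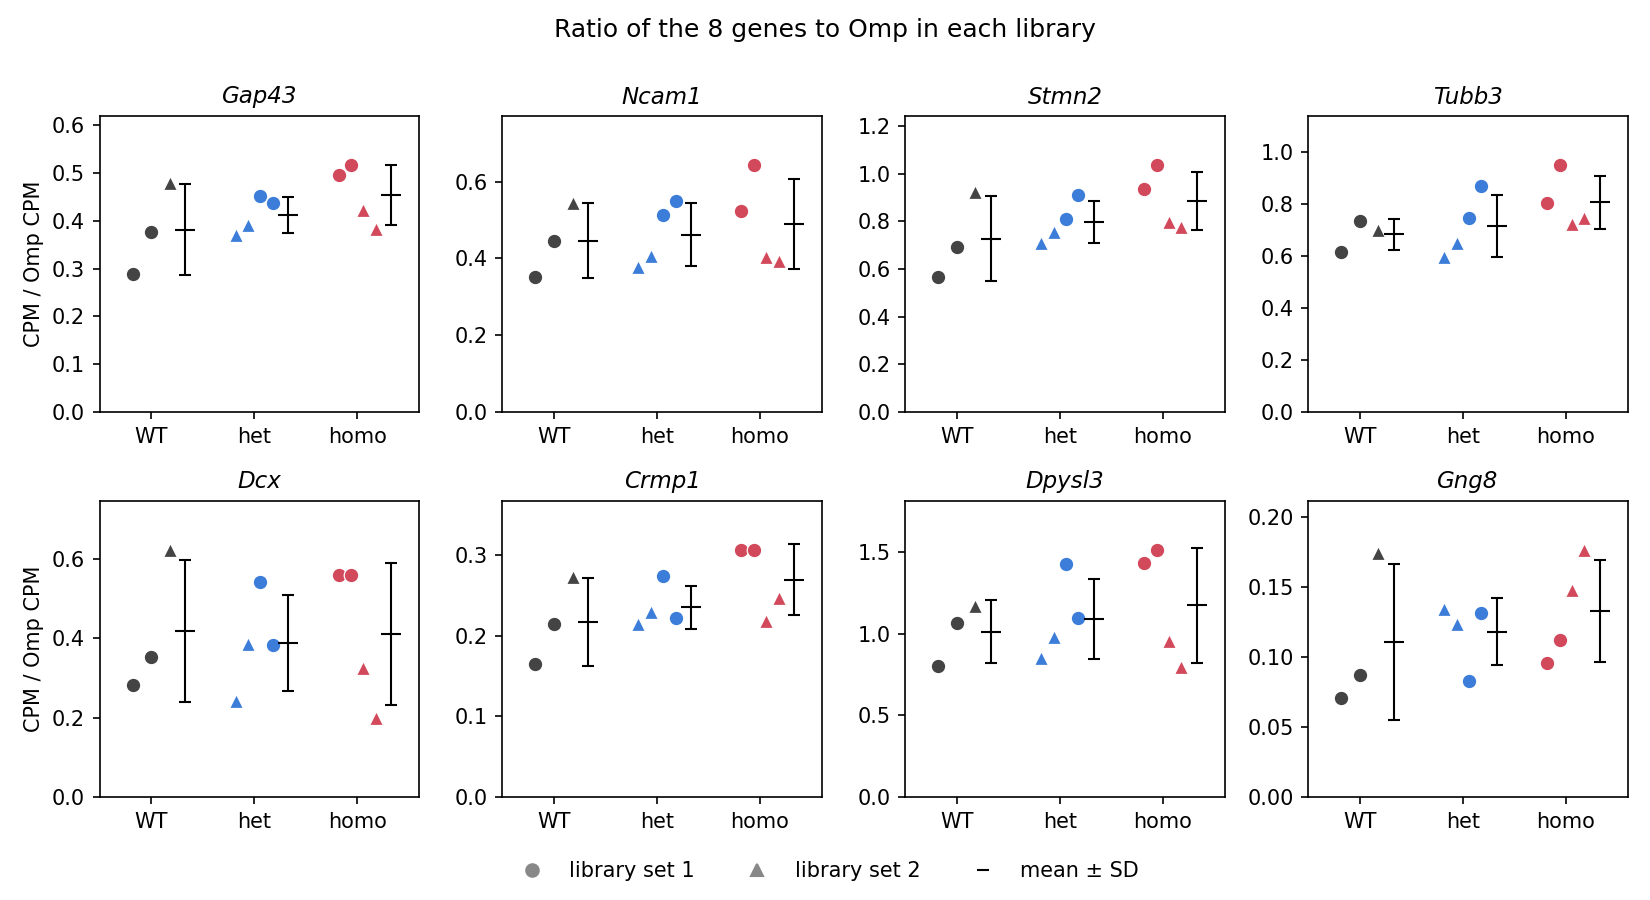
CPM of each of the 8 genes divided by the CPM of Omp (y axis, from 0) in each library by genotype (x axis), with circles for library set 1, triangles for set 2 and bars for the mean ± SD. In WT the triangle is the highest point for 7 of the genes, and among homozygous libraries the circles lie above the triangles for every gene but Gng8.

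Over the 8 genes the median log2 difference of the ratio was 0.25 in homozygous against WT, 0.12 in heterozygous against WT and 0.14 in homozygous against heterozygous. Over all genes it was 0.27, 0.10 and 0.16, close to the medians of the 8. By genotype the ratio ranges overlapped for all 8 genes in the 3 comparisons, where 1.76%, 0.821% and 1.03% of all genes did not overlap. With the Omp count as the library offset in edgeR, fitted over all genes, 0 of 8 genes passed an adjusted p of 0.05. The background of that fit was 0.0121% in homozygous against WT, 0% in heterozygous against WT and 0% in homozygous against heterozygous. At an unadjusted p under 0.05 the count was 0 of 8 as well, against 2.05%, 1.32% and 0.362% of all genes. The fitted homozygous against WT log2 differences ran from -0.026 (Dcx) to 0.31 (Crmp1, SE 0.29).

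The direction of the ratio against WT depended on the set. In set 1, with 2 homozygous and 2 WT libraries, all 8 ratios were higher in homozygous libraries, by a median of 0.63 on the log2 scale, and Omp itself was lower by 0.75. In set 2, where WT replicate 3 is the only WT library, 7 of the 8 were lower, with a median of -0.25, and Omp was higher by 0.55. Heterozygous against WT gave the same split, with 8 of 8 higher in set 1 (median 0.43) and 8 of 8 lower in set 2 (median -0.35). In CPM, 7 of 8 genes were lower in homozygous than in WT libraries in set 1 (median -0.12) and 7 of 8 higher in set 2 (median 0.30), and the gene that went the other way was Dcx in both sets. Homozygous against heterozygous, with 2 libraries of each in each set, gave 7 of 8 ratios higher in set 1 (median 0.19) and 6 of 8 in set 2 (median 0.071).

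Other genes of growing neurons and regulators of OSNs were read from lists, which are not exclusive to immature OSNs. The study itself used data on Lhx2, Ebf and Ldb1 from mature OSNs. Of 22 further growth cone and cytoskeleton genes, 11 were higher and 11 lower in homozygous than in WT libraries, with 0 at an unadjusted p under 0.05 in edgeR and a median log2 fold change of 0.0096. Tuba1a, the alpha-tubulin of growing neurons, stood at 1128 ± 176 CPM in WT, 1041 ± 150 in heterozygous and 1084 ± 118 in homozygous libraries (SD, n = 3, 4 and 4). Map1b, a microtubule-associated protein of growing axons, stood at 910 ± 113, 915 ± 127 and 891 ± 50.8 CPM, Elavl3, a neuronal RNA-binding protein, at 378 ± 55.3, 390 ± 63.0 and 373 ± 42.1 CPM, and Marcks, a membrane-bound actin regulator related in function to Gap43, at 329 ± 51.2, 296 ± 84.5 and 283 ± 79.6 CPM. In heterozygous against WT the split was again 11 to 11, and in homozygous against heterozygous it was 12 to 10.

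The 12 genes of the regulator list gave 8 higher and 4 lower in homozygous against WT, with 0 at an unadjusted p under 0.05 in any comparison and medians of 0.085, 0.056 and 0.0057 in the 3 comparisons. Atf5, the stress-response factor that receptor choice engages in immature OSNs, stood at 679 ± 88.3 CPM in WT, 738 ± 129 in heterozygous and 739 ± 94.4 in homozygous libraries. Ldb1, the cofactor of Lhx2, had means of 432, 507 and 583 CPM with SDs of 198, 231 and 310, and of 327 and 739 CPM in sets 1 and 2. Ebf3 stood at 434 ± 59.5, 436 ± 77.8 and 410 ± 26.1 CPM.

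One stage earlier, 8 of 10 precursor genes were higher and 2 lower in homozygous than in WT libraries (median 0.089), with 0 at an unadjusted p under 0.05. Insm1, which promotes the step from proliferating to neurogenic divisions, stood at 174 ± 32.7, 188 ± 39.0 and 205 ± 24.9 CPM. Mki67, a marker of cycling cells, stood at 213 ± 19.0, 177 ± 9.998 and 185 ± 11.2 CPM, and its unadjusted p of 0.0445 in heterozygous against WT was the single one under 0.05 in the list. One stage later, 13 of 13 mature OSN genes, Omp included, had lower fitted levels than in WT in both mutant genotypes (medians -0.28 and -0.17), with 0 at an unadjusted p under 0.05. Their summed levels overlapped, at 2255 to 3828 CPM in WT, 2425 to 3152 in heterozygous and 2217 to 3066 in homozygous libraries, and for Omp the heterozygous direction turned without WT replicate 1 (0.083). Gfy, a Golgi protein of OSNs, stood at 874 ± 217, 785 ± 117 and 812 ± 212 CPM, with a homozygous against WT log2 fold change of -0.11. Gnal, the olfactory G protein alpha subunit, stood at 427 ± 94.98, 369 ± 76.7 and 336 ± 39.3 CPM, with a log2 fold change of -0.34.

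Markers of other cells that could share the dissected tissue were measured beside these. All 13 skeletal muscle genes had higher fitted levels in both mutant genotypes than in WT, with 8 and 12 of them at an unadjusted p under 0.05 and 0 after adjustment, and the summed list ran from 26.8 to 77.3 CPM in WT, 36.4 to 1827 in heterozygous and 56.4 to 874 in homozygous libraries. Of 8 tested peripheral sensory neuron genes, 6 had a higher and 2 a lower fitted level in both mutants than in WT. Prph and Calca were higher at an unadjusted p under 0.05 in both. Prph had means of 54.9, 80.9 and 80.2 CPM in WT, heterozygous and homozygous libraries. Calca was near the floor, at 0.276, 0.866 and 0.780 CPM. The summed list of 9 ran from 156 to 203, 164 to 201 and 171 to 199 CPM. The 12 olfactory bulb and other central neuron genes, 8 of them tested, summed to 106 to 130, 80.2 to 118 and 81.8 to 143 CPM, led by Slc17a6, with 1 higher (Slc17a7) and 1 lower (Slc17a6) at an unadjusted p under 0.05 in homozygous against WT. The level of Slc17a7 was low, with means of 1.23 CPM in WT and 3.37 CPM in homozygous libraries (SD 3.04). The 5 vomeronasal neuron genes, 3 tested, had 0 at that threshold and summed to 529 to 746, 567 to 656 and 619 to 680 CPM, most of it Gnai2 and Gnao1, which other neurons share.

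In the non-neuronal lists other than skeletal muscle few genes passed. Of 10 ensheathing glia and Schwann cell genes 1 (Erbb3) was higher at an unadjusted p under 0.05 in homozygous against WT, of 10 mesenchyme, cartilage and bone genes 1 (Dcn) was lower in both mutants, and of 7 immune genes C1qb was higher in both mutants and Cd68 in heterozygous libraries. None of the 6 sustentacular, 5 horizontal basal and 2 tested erythroid genes passed it. The mesenchyme list took 7848 to 20300 CPM in WT, 10760 to 17300 in heterozygous and 11930 to 14070 in homozygous libraries, so cartilage and bone RNA varied most among the WT libraries. What part these other cells had in the levels of the 8 genes was not tested.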

How the data were processed

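Per the labels, strand-specific libraries were prepared from polyA-selected RNA of the whole MOE (total RNA as input). Per the labels and the methods, the authors trimmed reads (Trimmomatic, version 0.36), aligned them to mm10 (HISAT2, version 2.1.0) and deposited raw read counts per gene (featureCounts, Subread version 1.6.2). The submitters' processing notes also name DESeq2 (version 1.20.0). The annotation, strand setting and treatment of reads with several positions are not given in the sources used here. The second deposited table, of normalised values, was not used, and 0 columns belonged to no sample.

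Counts were tested with edgeR (version 4.0.16, R version 4.3.3): TMM scaling, filterByExpr, 1 quasi-likelihood fit with the 3 genotypes as groups (11 libraries) and Benjamini-Hochberg adjustment over 16574 genes, with 95% confidence intervals from the same fit. CPM values are counts scaled to a common TMM-adjusted library total. On simulated data with 200 changed genes the fit was tested before use. The simulated libraries were independent, had the same dispersion for every gene and no library sets. They therefore do not measure the power or error rate of the fit on the real libraries. Ratios to Omp were compared as mean log2 values by two-sided exact permutation tests, 24 in all and unadjusted, which do not use the pairing of libraries described below. Gene positions and exon lengths came from GENCODE M21 (mm10).

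The 8 genes, the lists and the tests were chosen with earlier results of these data known. Named were the 8 genes and Omp, up to 4 genes with the highest mean CPM of a list, and the 10 genes most like the mean of the 8. Other list genes named (Prph, Calca, Slc17a6, Slc17a7, Erbb3, Dcn, C1qb, Cd68) were chosen by their unadjusted p. Lists were immature OSN, growth cone and cytoskeleton, immature OSN regulators, neuronal precursor, mature OSN, vomeronasal neuron, olfactory bulb and central neuron, peripheral sensory neuron, ensheathing glia and Schwann cell, skeletal muscle, mesenchyme, sustentacular, horizontal basal, erythroid and immune.

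Same-numbered homozygous and WT libraries deviated together from their group means (r = 0.33, 0.42 and 0.40 over all genes), so they were also compared as pairs. They also share a library set, so these r values cannot tell a pairing of animals from the set, and the labels name no shared litter or day. For the other comparisons every r was negative. Alternatives were other scaling (RLE), DESeq2 (version 1.42.0), no filter, fits of 2 genotypes, a replicate block, the library set as covariate, totals without muscle and haemoglobin genes, Omp as offset, the mature OSN list as denominator and leaving out each library. Pair differences of the ratio were added after the data were seen. Left out together, as an alternative added after the sums were seen, were the 4 libraries with over 400 CPM of muscle genes.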

Additional observations from a re-analysis of the deposited data

Results flagged for a closer look

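Of 32 groups of 4 libraries examined (the CPM and the ratio to Omp of the 8 genes in the heterozygous and the homozygous group), 2 held a library far from the other 3, where chance gives about 1 in 20 groups. Both concern heterozygous replicate 3, which had 448 CPM of Stmn2 and 786 CPM of Dpysl3. The gap to the next library took 0.897 and 0.869 of the range of the group, above the critical value of 0.829. The same library was the highest of all 11 for 6 of the 8 genes, and it carried 36.4 CPM of summed skeletal muscle genes, the lowest of its group.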

How the results depend on the processing

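The count of members past an adjusted p of 0.05 stayed at 0 of 8 in each comparison under every alternative. Over all genes it was above 0 only with DESeq2 (8 in homozygous against WT) and with Omp as offset (2, or 60 with a replicate block). At an unadjusted p under 0.05 the count of members also stayed at 0, except for a range of 0 to 1 on leaving out a library, where without WT replicate 3 Tubb3 passed in heterozygous against WT. In that fit 384 of 16788 genes were higher and 230 lower at this threshold. Direction was not stable, and most fold changes lay near 0. In homozygous against WT, the log2 fold change of Gap43 turned to -0.0027 with RLE scaling, -0.0024 with DESeq2, -0.014 without a filter and -0.013 in the fit of 2 genotypes. With the library set as covariate, Gng8 gave -0.00090 and Tubb3 0.0055. In heterozygous against WT that covariate turned Gng8 to -0.027 and Ncam1 to 0.0025, leaving out the 4 libraries with muscle RNA turned Dcx to 0.017 and Ncam1 to 0.018, and a replicate block turned Dcx to 0.026. Within library set 2 the log2 difference of the ratio to Omp turned to -0.25 (Gap43), -0.11 (Gng8), -0.23 (Stmn2), -0.45 (Ncam1), -0.24 (Crmp1) and -0.43 (Dpysl3), and within set 1 that of Dcx turned to 0.83. The median over the 8 moved to 0.63 in set 1 and -0.25 in set 2, and in heterozygous against WT to 0.43 and -0.35, where WT replicate 3 is the only WT library of set 2. The cause was not tested.

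With a replicate block, the median log2 fold change was 0.012 in homozygous against WT, 0.038 in heterozygous against WT and -0.015 in homozygous against heterozygous. In each, 0 of 8 genes passed an adjusted p of 0.05, as did 0 of all 16574 genes. The block in the fit with Omp as offset turned the ratio of Dcx to 0.15, and the mean of the same-numbered pairs, which leaves out homozygous replicate 4, turned it to 0.24. Same-numbered libraries of the unpaired comparisons share only a number.

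Leaving out each library in turn gave ranges across 0 in homozygous against WT for the log2 fold change of Gap43 (-0.11 to 0.097), Gng8 (-0.085 to 0.33), Stmn2 (-0.076 to 0.10), Tubb3 (-0.31 to 0.077), Crmp1 (-0.056 to 0.15) and Dpysl3 (-0.26 to 0.044), and for the ratio of Dcx (-0.31 to 0.26) and Ncam1 (-0.034 to 0.28). In heterozygous against WT all 8 ranges crossed 0, at -0.018 to 0.20 for Gng8, -0.39 to 0.040 for Dcx, -0.19 to 0.034 for Ncam1, -0.095 to 0.15 for Crmp1, -0.084 to 0.12 for Gap43, -0.073 to 0.11 for Stmn2, -0.33 to 0.055 for Tubb3 and -0.22 to 0.14 for Dpysl3. Of 368 further values of single genes under the alternatives, 56 changed sign and 0 changed side of the threshold.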
